A study of Mus musculus with 6 samples.

Results

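The genes described here encode 8 proteins that anchor, shape or repair the sarcolemma, the plasma membrane of the muscle fibre. They are dystrophin (Dmd), its paralog utrophin (Utrn), dystroglycan (Dag1), the alpha, beta and delta sarcoglycans (Sgca, Sgcb, Sgcd), caveolin 3 (Cav3) and dysferlin (Dysf). The members were taken by gene symbol, and all 8 were measured among 19938 genes in the soleus, a slow postural muscle of the calf. RNA came from male C57BL/6 mice aged 8 weeks. It was hybridized to Affymetrix 1.0 ST arrays, 2 for control mice, 2 for mice under hindlimb suspension, which takes the weight off the hind limbs, and 2 for suspended mice that also received electroacupuncture, a current passed through acupuncture needles. No label ties the duplicate arrays to separate animals, so p-values here measure the spread between arrays, which may be technical.

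Dystrophin links the actin cytoskeleton of the fibre to dystroglycan, which crosses the membrane as a complex and binds laminin outside it. The sarcoglycans stabilise dystroglycan in the membrane, and loss of dystrophin or of a sarcoglycan leaves fibres prone to tearing when they contract. Utrophin can take the place of dystrophin and in adult muscle is concentrated at the neuromuscular junction. Caveolin 3 forms the caveolae of muscle, small pits of the membrane that flatten under tension. Dysferlin takes part in the calcium-triggered resealing of membrane wounds. Mutations in the human counterparts of most of these genes cause muscular dystrophies.

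None of the 8 genes passed an adjusted p of 0.05 in any comparison (limma over all genes, Benjamini-Hochberg). The highest mean difference was that of Dmd, which was 1.45-fold higher in the 4 suspended arrays than in control (95% interval 1.13 to 1.87, adjusted p = 0.144). In 5 of the 8 genes, Dmd, Sgca, Sgcb, Cav3 and Dysf, every suspended array lay above both control arrays, while Utrn, Dag1 and Sgcd overlapped. Of all genes, 13.1% had every suspended array above control, and 17% of those at or above the median signal. The members were chosen with earlier results of these arrays known, and this count was not tested.

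Sequence upstream of the listed transcription starts was read from RefSeq (GRCm38.p6), where all 8 genes matched, 3 of them with 2 starts. The 250 bases before a start are printed for Dmd (the more upstream of its 2 starts), Sgca and Cav3, the genes that lay above control on every suspended array and whose window held an E-box. Capitals mark E-boxes (CANNTG), TATA boxes (TATAAA) and, by name, MEF2 sites and CArG boxes, the sites of myogenic factors, of TATA-binding protein, of MEF2 and of serum response factor. Both strands were searched.
Dmd, chrX:82948620-82948869, plus strand: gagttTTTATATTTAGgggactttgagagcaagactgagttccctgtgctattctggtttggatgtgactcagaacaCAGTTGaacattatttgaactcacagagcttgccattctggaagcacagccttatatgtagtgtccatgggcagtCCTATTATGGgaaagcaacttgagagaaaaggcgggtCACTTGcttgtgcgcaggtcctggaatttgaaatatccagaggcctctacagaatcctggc
Sgca, chr11:94976328-94976577, minus strand: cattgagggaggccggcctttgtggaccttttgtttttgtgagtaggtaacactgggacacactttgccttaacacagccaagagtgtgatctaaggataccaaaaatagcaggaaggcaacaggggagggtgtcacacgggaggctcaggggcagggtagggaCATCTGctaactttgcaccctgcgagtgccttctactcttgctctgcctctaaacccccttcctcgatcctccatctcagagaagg
Cav3, chr6:112459255-112459504, plus strand: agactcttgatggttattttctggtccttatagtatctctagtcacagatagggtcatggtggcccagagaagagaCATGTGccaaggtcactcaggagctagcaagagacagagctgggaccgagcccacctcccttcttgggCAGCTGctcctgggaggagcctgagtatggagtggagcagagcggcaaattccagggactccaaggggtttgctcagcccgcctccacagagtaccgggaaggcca

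The Dmd window held 2 E-boxes, which begin 173 and 61 bases before the start, a CArG box that begins 98 bases before it and a MEF2 site that begins 244 bases before it and overlaps a TATA match on the other strand. The CArG box and the MEF2 site were found in no other window of the 11 listed for the 8 genes. Among 32851 listed promoters 66.2% held an E-box in the same length, 12.4% a TATA box, 2.92% a MEF2 site and 1.47% a CArG box. The Cav3 window held 2 E-boxes and that of Sgca 1. The window of Utrn held 7 E-boxes and that of Sgcd 2, while the 2 overlapping windows of Dag1 shared the same 1. No E-box was found in the windows of Sgcb and Dysf or in the other window of Dmd, and that of Sgcb held a TATA box. These are matches of letters and were not tested as binding sites. The deposited table has 1 transcript cluster, a set of probes summed into 1 value, for each of the 8 genes, so forms of Dmd from different starts were not measured apart.

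Signals are log2 values from robust multi-array averaging (RMA), and levels are not compared between genes. All 8 members lay above 3.50, the 95th percentile of the means of 1027 olfactory receptor genes, which stand here for background. So did 13717 of the 19938 genes. The duplicate arrays differed most in control, with an SD of the difference over all genes of 0.357, against 0.293 in suspension and 0.251 with electroacupuncture. The 9 adipocyte markers showed a mean log2 signal of 6.84 and 8.29 on control arrays 1 and 2, and the 12 macrophage markers 5.65 and 5.05 on suspension arrays 1 and 2. All 15 markers of skeletal muscle fibres lay above the background level, with a mean log2 signal of 11.70 to 12.06 on the 6 arrays. No macrophage or adipocyte marker measured lay below that level either, so it does not tell cell types apart.

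**Figure D1:**
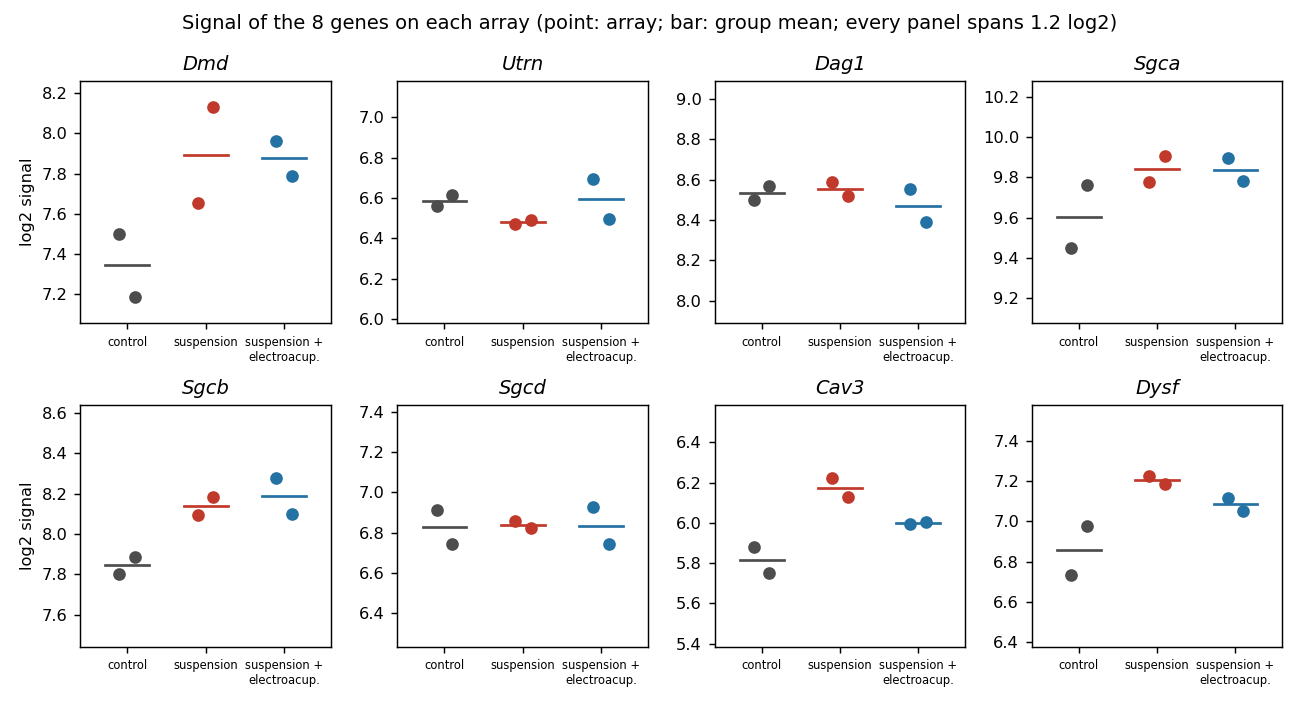
Log2 signal of each of the 8 genes (vertical axis) on the 2 arrays of each group (horizontal axis), with a point for each array and a bar for the group mean. The suspended arrays of Dmd, Sgca, Sgcb, Cav3 and Dysf all lie above both control arrays, and those of Utrn, Dag1 and Sgcd overlap with control.

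Dystrophin (Dmd) stood at a log2 signal of 7.50 and 7.19 in control, 7.65 and 8.13 in suspension and 7.96 and 7.79 in suspension with electroacupuncture. Control array 2 was the lowest and suspension array 2 the highest, and the groups with and without suspension did not overlap. The group means were 7.34 ± 0.22, 7.89 ± 0.34 and 7.88 ± 0.12 (SD, n = 2 each). Suspension differed from control by 0.55 ± 0.19 log2 (SE, limma adjusted p = 0.247), and the electroacupuncture group by 0.53 ± 0.19 (adjusted p = 0.266). Over both suspended groups the log2 difference was 0.54 ± 0.16, an unadjusted p of 0.00858 in limma. The largest unadjusted p among the genes called in that comparison was 0.00108. That difference was 0.38 without control array 2 and 0.70 without control array 1. For suspension alone it was 0.31 without suspension array 2 and 0.79 without suspension array 1. At least as high a difference was found for 2.65% of all genes.

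Utrophin (Utrn), the paralog, gave log2 signals of 6.56 and 6.62 in control, 6.47 and 6.49 in suspension and 6.69 and 6.50 with electroacupuncture. Both suspension arrays were below both control arrays, and array 1 of the electroacupuncture group was the highest of all. The log2 difference of suspension from control was -0.11 ± 0.13 (limma adjusted p = 0.815). For both suspended groups together it was -0.05, with a 95% interval of 0.805-fold to 1.16-fold. The interval of Dmd in the same comparison began at 1.13-fold. The difference between the responses of the paralogs was not tested.

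Dystroglycan (Dag1), the laminin receptor at the centre of the complex, had log2 signals of 8.50 and 8.57 in control, 8.59 and 8.52 in suspension and 8.55 and 8.39 with electroacupuncture. The groups overlapped, and the 6 arrays spanned 0.20 log2. Its difference over both suspended groups was -0.02 log2, with a 95% interval of 0.831-fold to 1.17-fold (limma adjusted p = 0.963). Without array 2 of the electroacupuncture group, or without control array 2, the difference was 0.02 instead.

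Among the sarcoglycans, alpha-sarcoglycan (Sgca), the member restricted to striated muscle, had log2 signals of 9.45 and 9.76 in control, 9.78 and 9.91 in suspension and 9.90 and 9.78 with electroacupuncture. Control array 2 lay just under the lowest suspended array. The difference over both suspended groups was 0.24 ± 0.13 log2 (limma adjusted p = 0.444). It was 0.08 without control array 1 and 0.39 without control array 2, and the same held in each single comparison with control. Sgca was also the gene that no longer stood clear of control when each array was centred on its median.

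Beta-sarcoglycan (Sgcb), which forms the core of the sarcoglycan complex with the delta chain, gave log2 signals of 7.80 and 7.88 in control, 8.09 and 8.18 in suspension and 8.28 and 8.10 with electroacupuncture. The gap between the highest control array and the lowest suspended array was wider than the spread of the control pair. The log2 difference was 0.29 ± 0.13 for suspension (limma adjusted p = 0.393), 0.34 ± 0.13 for the electroacupuncture group (adjusted p = 0.304) and 0.32 ± 0.11 for both (adjusted p = 0.215). It ran from 0.27 to 0.36 for both groups with each array left out in turn.

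Delta-sarcoglycan (Sgcd) had log2 signals of 6.91 and 6.75 in control, 6.86 and 6.82 in suspension and 6.93 and 6.74 with electroacupuncture. The lowest and the highest value both lay within the electroacupuncture pair. The group means were 6.83, 6.84 and 6.84, and the interval over both suspended groups was 0.836-fold to 1.21-fold.

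Caveolin 3 (Cav3) gave log2 signals of 5.88 and 5.75 in control, 6.22 and 6.13 in suspension and 5.995 and 6.004 with electroacupuncture. The 3 groups did not overlap, with the electroacupuncture arrays between the others. Of all genes, 21.3% had both suspension arrays above both control arrays. In 17.1% both electroacupuncture arrays lay below both suspension arrays. The share of all genes with the 3 groups in this order was not counted. The log2 difference from control was 0.36 ± 0.13 for suspension (limma adjusted p = 0.303), 0.18 ± 0.13 for the electroacupuncture group (adjusted p = 0.66) and 0.27 ± 0.12 for both (adjusted p = 0.315). Without control array 2 the electroacupuncture group differed from control by 0.12. Its arrays lay below those of suspension by a log2 difference of -0.17 ± 0.13 (95% interval -0.48 to 0.13).

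Dysferlin (Dysf) had log2 signals of 6.73 and 6.98 in control, 7.22 and 7.19 in suspension and 7.12 and 7.05 with electroacupuncture. These groups did not overlap either and stood in the same order as those of Cav3, an order whose share of all genes was not counted. The log2 difference from control was 0.35 ± 0.14 for suspension (limma adjusted p = 0.326), 0.23 ± 0.14 for the electroacupuncture group (adjusted p = 0.565) and 0.29 ± 0.12 for both (adjusted p = 0.288). Without control array 1 these differences were 0.23, 0.11 and 0.17, and without control array 2 that of the electroacupuncture group was 0.35. The electroacupuncture arrays of Dysf differed from those of suspension by -0.12 ± 0.14 log2 (95% interval -0.43 to 0.19), so neither gene separated the 2 suspended groups beyond the error of the fit.

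**Figure D2:**
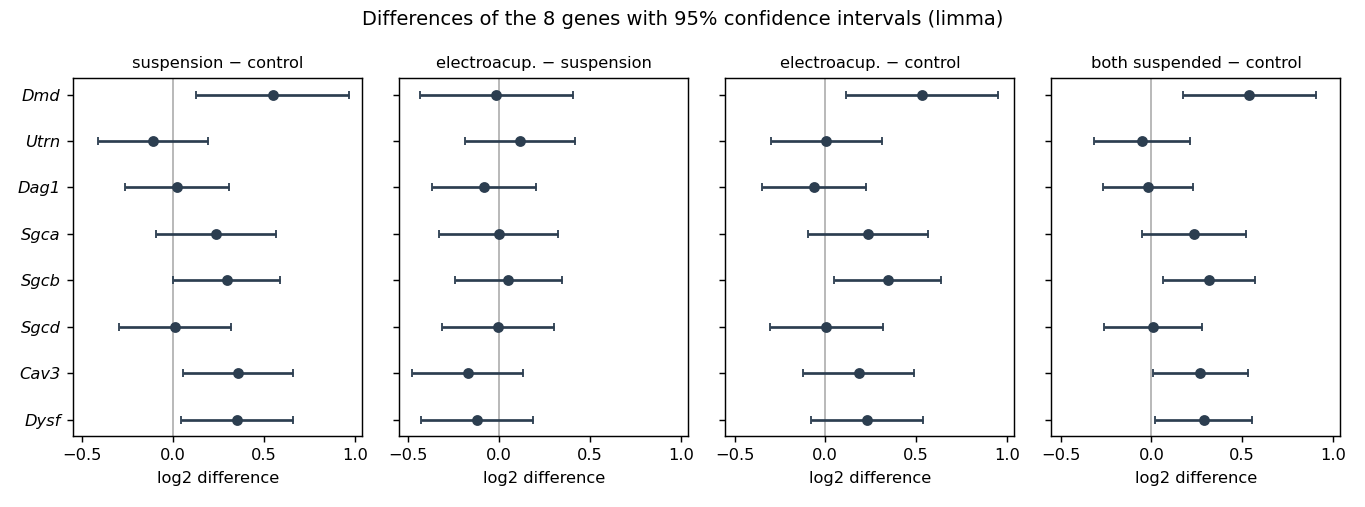
Log2 difference of each of the 8 genes in the 4 comparisons (horizontal axis), with bars for the 95% confidence interval from limma. Over both suspended groups the intervals of Dmd, Sgcb, Cav3 and Dysf lie above 0 before adjustment, and in the comparison of electroacupuncture with suspension all 8 intervals include 0.

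The comparison of suspension with control addressed unloading. None of the 8 genes passed, against 1.05% of all genes, and 3 (Dmd, Cav3 and Dysf) were higher at an unadjusted p under 0.05, against 6.63% of all genes. The groups did not overlap in 5 genes with suspension higher, against 21.3% of all genes and 25.5% of those at or above the median signal, and in Utrn with suspension lower, against 18.5%. The median log2 difference was 0.27 for the members and 0.01 for all genes. For suspension with electroacupuncture against control, again none passed, against 1.03% of all genes, and 2 (Dmd and Sgcb) were higher at an unadjusted p under 0.05, against 6.47%. The same 5 genes stood clear above control, against 21.8% of all genes and 24.8% of those at or above the median signal. The median log2 difference was 0.21, and that of all genes 0.01. Over both suspended groups none passed, against 2.18% of all genes, and 4 (Dmd, Sgcb, Cav3 and Dysf) were higher at an unadjusted p under 0.05, against 7.7%, or 11.8% of the genes at or above the median signal. These 3 comparisons share the control arrays, so a low control array enters each of them.

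The comparison of electroacupuncture with suspension alone addressed the treatment of unloaded muscle. No member and 0% of all genes passed in limma, and 0 members had an unadjusted p under 0.05, against 3.07% of all genes. Their log2 differences ran from -0.17 (Cav3) to 0.12 (Utrn), with a median of -0.01. For Dmd the difference was -0.02, with a 95% interval of 0.739-fold to 1.32-fold, and for Sgcb it was 0.05, with one of 0.845-fold to 1.27-fold. Both treated arrays lay below both suspension arrays for Cav3 and Dysf, against 17.1% of all genes, and above them for Utrn, against 15.4%.

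Around the members, the other genes of the dystrophin complex also had no call. Of the list, 11 were measured. Over both suspended groups 7 differences were above 0 and 4 below, with a median of 0.12 log2. Dtna, the alpha-dystrobrevin gene, had log2 signals of 7.24 and 7.37 in control, 7.52 and 7.45 in suspension and 7.67 and 7.64 with electroacupuncture, a difference of 0.26 ± 0.11 (limma adjusted p = 0.293). The dystrophin-related gene Drp2 differed by 0.41 ± 0.14 (limma adjusted p = 0.203), and by 0.26 without control array 1. Sarcospan (Sspn), which sits beside the sarcoglycans in the membrane, went the other way at -0.28 ± 0.12 (adjusted p = 0.302). Neuronal nitric oxide synthase (Nos1), which the complex holds at the membrane, differed by -0.08 ± 0.12 over both groups, and by -0.33 ± 0.14 between electroacupuncture and suspension (limma adjusted p = 1).

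The enzymes that add the laminin-binding sugar chain to dystroglycan had a median of 0.02 log2 over both suspended groups, with 7 of 14 measured above 0 and no call. Dpm1, a subunit of dolichol-phosphate mannose synthase, differed by 0.35 ± 0.11 (limma adjusted p = 0.184), and Gmppb, which makes GDP-mannose, by -0.50 ± 0.18 (adjusted p = 0.219), or -0.33 without control array 1. Gmppb lay near the background level of 3.50, with mean log2 signals of 3.86 in control, 3.50 in suspension and 3.22 with electroacupuncture.

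Of the 9 other caveolar genes measured, 7 differences over both suspended groups were below 0 and 2 above. Of all genes, 51.5% had a difference above 0. None of the 9 passed, and the median was -0.21 log2. Every suspended array lay below both control arrays in 2 of the 9 and above them in 0, against 11.7% and 13.1% of all genes. The difference of this list from Cav3 was not tested. Cavin2, a coat protein of caveolae, differed by -0.52 ± 0.17 (limma adjusted p = 0.178), and Pacsin2, a membrane-bending protein, by -0.28 ± 0.13 (adjusted p = 0.328). The muscle cavin Cavin4 differed by -0.18 ± 0.13, caveolin 1 (Cav1) by 0.04 ± 0.19 and Cavin1, needed for caveolae in all tissues, by -0.03 ± 0.14. Without control array 2 the differences of Cavin2, Pacsin2 and Cavin4 were -0.27, -0.14 and -0.06. The mean log2 signal of the list was 7.39 on control array 1 and 7.74 on control array 2. Cav1, which is abundant in endothelium and fat, had a log2 signal of 9.37 ± 0.53 in control (SD, n = 2), with array 2 the higher as for the adipocyte markers, and differed by -0.33 without control array 1. The part of fat in that spread was not tested.

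Membrane repair genes other than Dysf included the only genes of the surrounding lists called higher. Of 28 measured, Anxa11 and Ahnak passed as higher over both suspended groups, and none passed as lower. Of all genes, 2.18% were called in either direction. The 28 differences, 14 above 0 and 14 below, ran from -0.656 to 0.686 log2, with a median of -0.005. Anxa11, a calcium-dependent phospholipid-binding annexin, had log2 signals of 8.05 and 8.36 in control, 8.81 and 8.97 in suspension and 8.95 and 8.85 with electroacupuncture. It was 1.61-fold higher (95% interval 1.32 to 1.96, limma adjusted p = 0.0308). Ahnak, a large scaffold that associates with dysferlin, stood at 7.36 and 7.37 in control, 7.96 and 7.80 in suspension and 8.00 and 7.90 with electroacupuncture, and was 1.47-fold higher (interval 1.23 to 1.74, adjusted p = 0.0399). Neither passed in suspension alone against control (adjusted p = 0.0778 and 0.109). The call of Anxa11 ended without any array but control array 2, and that of Ahnak without any 1 of the 6 arrays. Trim72, the gene of MG53, which nucleates the repair patch, differed by -0.40 ± 0.15 over both groups (adjusted p = 0.265), or -0.26 without suspension array 2. Anxa2 differed by -0.30 ± 0.22 (limma adjusted p = 0.592), and with each array left out it ran from -0.53 without control array 1 to -0.06 without control array 2. Capn3 and Ano5 were not analysed here.

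Outside the membrane, 13 of 19 laminin, collagen and integrin genes had a difference below 0 over both suspended groups. Of all genes, 51.5% had a difference above 0. The median of the list was -0.24 log2, with no call. Every suspended array lay below both control arrays in 4 of the 19 and above them in 3, against 11.7% and 13.1% of all genes. With electroacupuncture against control both arrays lay below control in 13 of the 19 and above in 3, against 20% and 21.8%. For suspension against control these counts were 4 and 5, against 18.5% and 21.3%. These counts were not tested. Col6a1, a chain of the collagen VI that surrounds fibres, differed by -0.55 ± 0.13 (limma adjusted p = 0.0648) and the laminin-binding integrin gene Itga7 by 0.61 ± 0.15 (adjusted p = 0.0825). Lama2, the muscle laminin chain that dystroglycan binds, differed by -0.24 ± 0.14 (adjusted p = 0.478), or -0.14 without suspension array 2. Of 12 fibroblast and tendon markers, Tnmd, Scx and Kera fell over both suspended groups, against 1.18% of all genes called lower. Of the 12 differences 8 were below 0 and 4 above, by up to 0.34 log2. Every suspended array lay below both control arrays in 5 of these markers and above them in 2, against 11.7% and 13.1% of all genes. The mean log2 signal of that list was 7.97 and 7.96 in control, 7.71 and 6.90 in suspension and 7.35 and 7.45 with electroacupuncture. The part of connective tissue in the matrix values was not tested.

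Inside the membrane, Flnc fell. Flnc encodes filamin C, an actin crosslinker that binds sarcoglycans and sits at the Z-disc and the costamere, where the sarcomere meets the membrane. Its log2 signals were 10.52 and 10.66 in control, 9.92 and 9.81 in suspension and 9.76 and 9.95 with electroacupuncture. All 4 suspended arrays lay below both control arrays. It fell by 0.73 ± 0.13 log2 in suspension (limma adjusted p = 0.0452), by 0.74 ± 0.13 with electroacupuncture (adjusted p = 0.0425) and by 0.73 ± 0.12 over both (adjusted p = 0.0172). Over both groups its call ended without any 1 of the 4 suspended arrays, with adjusted p from 0.0582 to 0.102. In each single comparison with control it ended without any 1 array other than control array 1. None of the other 22 measured genes of the costamere and the cytoskeleton beneath the membrane passed, and the median of the list was 0.04 log2.

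**Figure D3:**
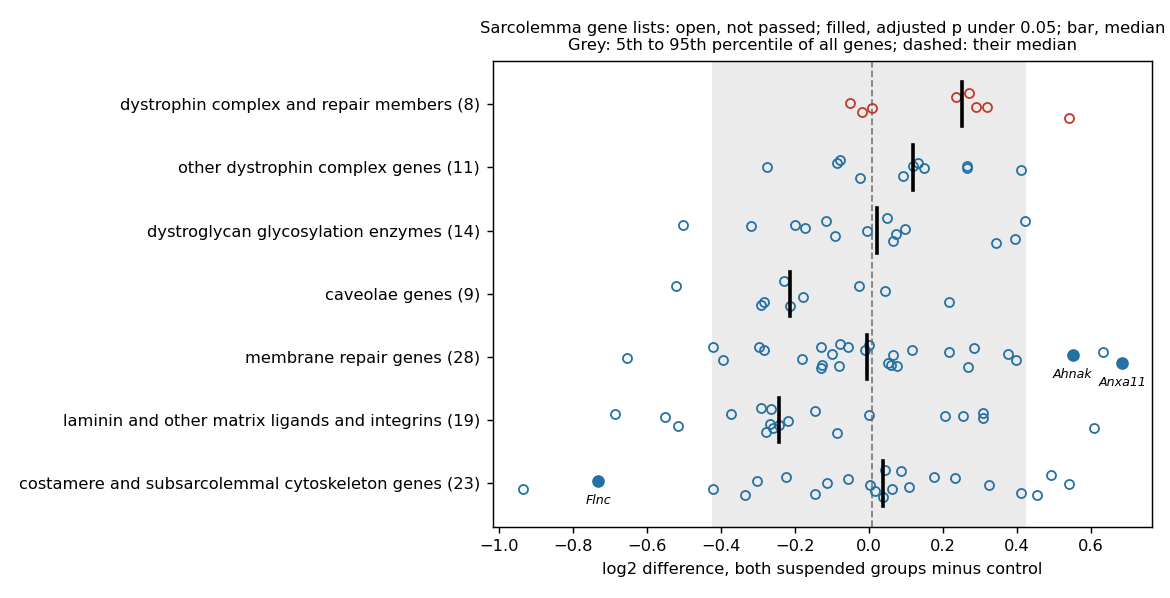
Log2 difference of both suspended groups minus control (horizontal axis) for the 8 genes (red) and 6 lists of genes around them (blue), with a point for each gene, a black bar for the median and a grey band from the 5th to the 95th percentile of all genes. Filled points passed an adjusted p of 0.05, and these are Anxa11 and Ahnak above 0 and Flnc below it.

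Some members are also expressed outside fibres, beta- and delta-sarcoglycan in vascular smooth muscle and utrophin in endothelium. In whole muscle, fewer cells of a type and less RNA per cell cannot be told apart. The mean log2 signal of 12 smooth muscle and pericyte markers was 6.79 and 7.07 on the control arrays, within which the 4 suspended arrays lay (6.85 to 7.04). That of 14 endothelial markers averaged 7.10 in control, 7.06 in suspension and 6.82 with electroacupuncture, and Kdr and Eng fell over both suspended groups (adjusted p = 0.0153 and 0.0345). Between electroacupuncture and suspension 13 of the 14 endothelial differences were below 0, and none passed. Of all genes, 48.4% had a difference above 0 there. For 15 skeletal muscle fibre markers it was 11.84 to 12.06 in control, 11.75 to 11.81 in suspension and 11.70 to 11.92 with electroacupuncture, with 6 of 15 differences above 0. Among them Myl3, the slow and ventricular myosin light chain, fell by 0.89 ± 0.15 log2 over both suspended groups (limma adjusted p = 0.0225) and by 1.00 ± 0.17 with electroacupuncture against control (adjusted p = 0.0377). No smooth muscle, endothelial or fibre marker lay at the background level. Of 12 macrophage markers, 10 differences were above 0 with electroacupuncture against control, with a median of 0.50 log2, and none passed. In 9 of the 12 both electroacupuncture arrays lay above both control arrays, against 21.8% of all genes. In suspension against control this held for 1 of them, with a median of 0.13 log2. The part of these cell types in the values of the 8 genes was not tested.

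**Figure D4:**
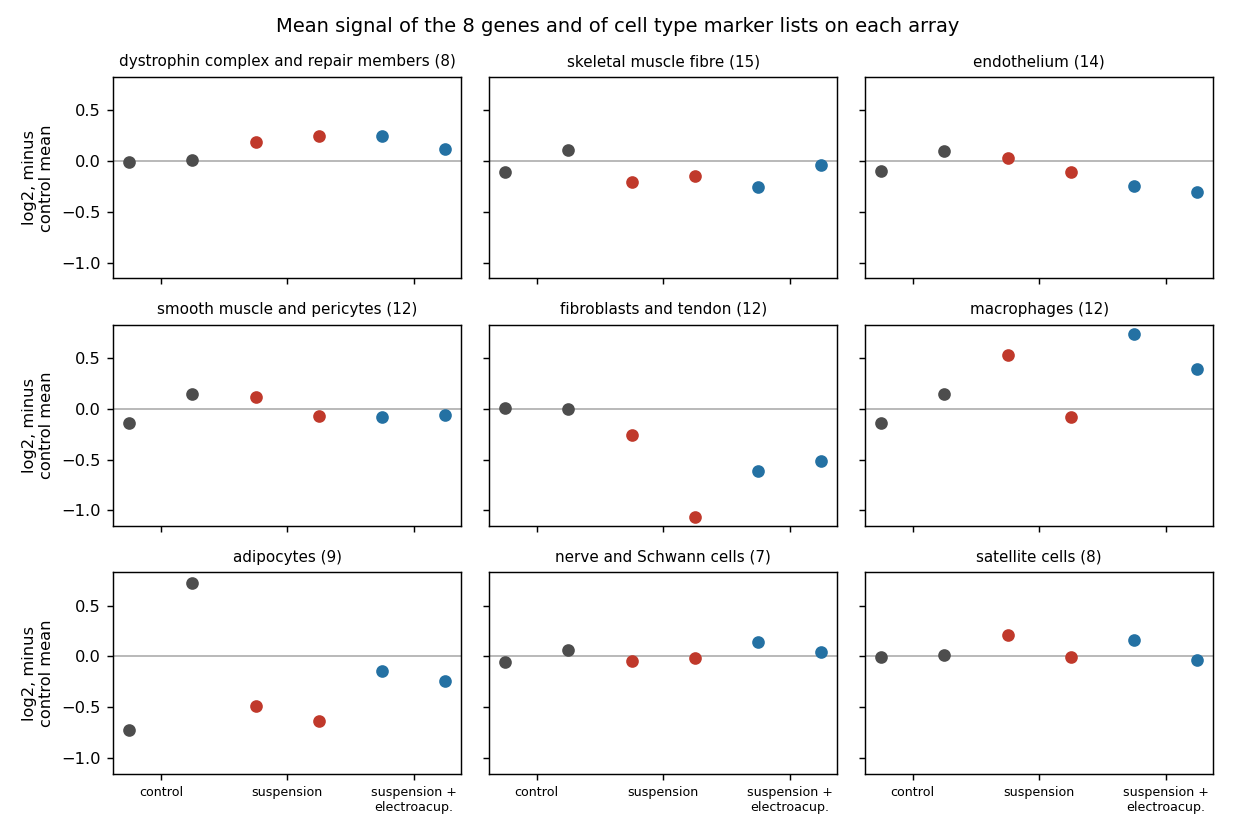
Mean log2 signal of the 8 genes and of 8 lists of cell type markers, less the control mean (vertical axis), with a point for each array by group (horizontal axis). The mean of the 8 genes lies above both control arrays on all 4 suspended arrays, while those of fibre and smooth muscle markers overlap with control.

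For the 3 members with the widest range of group means, the genes of most similar profile were found among 9639 named genes at or above the median signal. The measure was the root mean square difference over the 6 arrays after each gene was centred on its mean. The nearest to Dmd were the transcription factor gene Sim1 (0.046 log2), the kinase anchoring gene Akap9 (0.0526) and the noncoding RNA gene Firre (0.0764), and the nearest member, Sgcb, ranked 318. The nearest to Cav3 were Gata6 (0.033), Zbtb22 (0.0355) and Nop56 (0.0415), with Dysf at rank 576. Those nearest to Dysf were Cryz (0.0237), Ppp1r2 (0.0302) and Mideas (0.0324), with Sgca at rank 196. The median over the genes compared was 0.355 for Dmd, 0.216 for Cav3 and 0.209 for Dysf.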

How the data were processed

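The authors deposited log2 signals for 35556 transcript clusters of the 6 arrays, computed by RMA in Affymetrix Expression Console, per the submitters' processing notes. RMA corrects background and sets all arrays to 1 distribution, so a change shared by most genes would not show. The genome build is not given in the sources used here. Clusters with 1 symbol (21789) were kept, with the cluster of highest mean for each of 19938 genes. All groups entered a single limma fit (version 3.58.1, R 4.3.3), whose variance prior followed the mean signal, with 3 residual degrees of freedom and 5.88 from the prior. The p-values were adjusted by Benjamini-Hochberg over all genes. It was tested on simulated data. The fourth comparison set the mean of both suspended groups against control. The number of arrays limits the precision.

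The members and lists were chosen with earlier results of these data known. Named genes were the members, the genes of each surrounding list that passed or else the 2 of smallest p, and 13 fixed genes, of which those measured are given. Capitals in sequences follow the motif search on both strands. Alternatives covered normalization, variance prior, array weights, signal filter, clusters per gene, groups fitted, a replicate block and each array left out.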

Additional observations from a re-analysis of the deposited data

How the results depend on the processing

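The count of members past the threshold was 0 in all 4 comparisons under every alternative run, also with the replicate block, where it was 0 as well. Replicate numbers did not pair the arrays (correlations of deviations between groups of -0.162, 0.017 and -0.016), and the block ended the calls of Anxa11 (adjusted p = 0.0548) and Ahnak (0.0812) over both suspended groups and of Flnc in suspension (0.0886) and with electroacupuncture (0.0855). The calls of Anxa11 and Ahnak also ended with no trend in the variance prior (0.064 and 0.0861), with array weights (0.0506 and 0.0828) and with every cluster by itself (0.116 and 0.119), and that of Ahnak under median centring (0.0616). For Flnc over both groups every cluster by itself ended the call (0.0889). In each single comparison with control the call of Flnc also ended under these 4 settings and with only the groups compared. The count of genes with every suspended array above control was 5, and 4 under median centring, which put Sgca within reach of control (this count was added after the data were seen). Over all genes the calls ran from 1 (every cluster by itself) to 625 (cyclic loess) for both suspended groups, from 1 to 301 for suspension, from 1 to 312 for the electroacupuncture group against control and from 0 to 4 for the treatment. Of 536 member differences under alternatives, 501 kept their direction and their side of the threshold, and the other 35 changed sign around 0, for causes not tested. Many of these alternatives left the difference of a member as it was, so its direction could not change there. Such were the variance prior, signal filter, clusters per gene, array weights, replicate block and groups fitted. Leaving out an array of a group not compared was another. With quantile normalization again, the log2 difference between electroacupuncture and suspension became 0.003 for Dmd, 0.021 for Sgca and 0.022 for Sgcd, and with cyclic loess 0.007, 0.004 and 0.019. For Sgcd it became -0.001, -0.018 and -0.002 over both suspended groups with quantile normalization, median centring and cyclic loess, and -0.012, -0.013 and -0.012 for suspension. Median centring gave -0.003 for Dag1 in suspension, and -0.023 for both Sgcd and Utrn with electroacupuncture against control. With each array left out, the difference over both suspended groups ran from -0.059 to 0.021 for Dag1, from -0.074 to 0.091 for Sgcd, from -0.328 to 0.414 for Cav1 and from -0.208 to 0.155 for Cavin1. For suspension it ran from -0.013 to 0.057 for Dag1 and from -0.071 to 0.094 for Sgcd. With electroacupuncture against control it ran from -0.141 to 0.019 for Dag1, from -0.085 to 0.097 for Sgcd and from -0.091 to 0.104 for Utrn. Between electroacupuncture and suspension it ran from -0.255 to 0.224 for Dmd, from -0.068 to 0.061 for Sgca, from -0.041 to 0.141 for Sgcb and from -0.096 to 0.086 for Sgcd.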
